A study of Mus musculus with 28 samples.

Results

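The 10 genes described here are Ccn1, Ccn2, Ankrd1, Axl, Amotl1, Amotl2, Ajuba, Lats2, Yap1 and Tead1, which were taken by name. The list was drawn up with earlier results of these data known, so the choice was not blind to the values. All 10 were found among the 29413 genes of a table of BMP-treated intestinal organoids and among the 55416 genes of a table of Tgfb-treated organoids. The first 8 are known as targets of the transcriptional coactivator YAP, whereas Yap1 encodes YAP itself and Tead1 a DNA-binding partner of YAP. No sample carried an altered Yap1 or Tead gene, so the name YAP target rests on background knowledge and was not checked by a perturbation in these data.

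The study measured mRNA by sequencing in organoids of wild-type (C57BL/6) mouse small-intestinal epithelium, small epithelial structures cultured from crypts, to ask how ligands of the Tgfb superfamily act on enterocytes of the villus tip. Crypts were first cultured in ENR medium to which neither BMP nor Tgfb had been added. Single recombinant ligands were then given at 500 ng/ml for 24 h. The BMP table held 4 untreated samples, 4 with BMP2 and 3 each with BMP3, BMP4, BMP5 or BMP7, while the separate Tgfb table had 3 samples without ligand and 3 with Tgfb. Mesenchymal cells from the duodenum of a PdgfraH2BeGFP mouse served as context, with 1 sample of freshly isolated cells and 1 of cells immortalised with HPV16-E6 and sorted for high eGFP. The age of the animals was not given in the sources used here. Nothing in the labels says that replicates came from separate animals or cultures, so p-values then measure only the spread between these samples, which may be technical.

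YAP and its paralog TAZ move between cytoplasm and nucleus and bind DNA through the TEAD factors. The LATS kinases of the Hippo pathway phosphorylate them, which keeps them out of the nucleus. Several YAP targets, Lats2 and the angiomotin genes among them, encode inhibitors of YAP. In the intestine the pathway is known for its part in crypt regeneration after injury.

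TEAD factors are known to bind the letters GGAATG, read as CATTCC on the other strand. Promoter windows of RefSeq (build GRCm38.p6) were at hand for 8 of the 10 genes, all but Ccn2 and Tead1, with 9 windows in all. In the 250 bases before the start site these letters were found, on either strand, in 6 of the 8, namely Ccn1, Ankrd1, Amotl2, Ajuba, Axl and Yap1, against 12.6% of 32851 promoters. The AP-1 letters TGANTCA were found in 0 of the 8 against 6.75% of promoters, and the Smad letters GGCGCC in 3 of the 8 (Ccn1, Axl and Lats2) against 9.59%. These counts are of genes, whereas the shares are of single promoter windows, so the 2 are not fully alike. No match overlapped another. The matches describe letters only, and no binding was measured here. Stretches of 4 promoters are shown, that of Ccn1 as a much used readout, that of Amotl2 for the GGAATG or CATTCC match nearest the start site, and those of Ankrd1 and Ajuba for their 2 matches. Sequences run 5′ to 3′ on the gene's strand, with GGAATG or CATTCC in capitals.
Ccn1: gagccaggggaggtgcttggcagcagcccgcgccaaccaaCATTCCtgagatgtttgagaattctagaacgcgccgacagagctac
Ankrd1: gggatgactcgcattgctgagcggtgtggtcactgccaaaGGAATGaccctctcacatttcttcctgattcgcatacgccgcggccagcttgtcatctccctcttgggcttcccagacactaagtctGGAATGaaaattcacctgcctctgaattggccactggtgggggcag
Amotl2: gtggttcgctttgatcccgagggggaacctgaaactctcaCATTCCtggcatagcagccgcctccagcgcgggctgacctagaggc
Ajuba: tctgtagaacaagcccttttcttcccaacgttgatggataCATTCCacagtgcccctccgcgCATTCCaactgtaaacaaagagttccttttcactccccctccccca
The Ccn1 stretch lies at chr3:145650043-145650128, minus strand, and its match begins 103 bases before the start site. The Ankrd1 stretch lies at chr19:36119922-36120094, minus strand, with matches 210 and 123 bases before the start. The Amotl2 stretch lies at chr9:102717699-102717784, plus strand, with its match 65 bases before the start. The Ajuba stretch lies at chr14:54577780-54577887, minus strand, with matches 186 and 164 bases before the start.

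Values of the BMP table are normalized counts, that is, reads divided by 1 size factor per sample. They are not corrected for gene length, so levels there are compared between samples of a gene and not between genes. Each sample held 21360773 to 24782351 reads, and 1 read was worth 0.826 to 1.28 normalized counts. Values of the Tgfb and mesenchymal tables are TPM (transcript abundance corrected for length and scaled to 1000000 per sample), whose depth is unknown. Changes were tested with limma on log2(value + 1), and a gene was called changed at a Benjamini-Hochberg adjusted p under 0.05 over all genes tested. Of the 10 genes, 9 passed the filter on low values in the BMP data (Axl did not), and 8 did in the Tgfb data (Axl and Ankrd1 did not). Because a gene that is high in only 1 group passes through that group, these counts are not a sample of all 10. When every sample was rescaled to the same total, the median log2 change over all genes moved by -0.45 for BMP2 and -0.39 for BMP4, and by 0.02 for BMP3, -0.04 for BMP5 and -0.07 for BMP7. With that rescaling the share of called genes that were higher went from 48.9% to 31.8% with BMP2, from 51.7% to 31.1% with BMP4 and from 59.4% to 48.7% with BMP7. With quantile normalization that share went from 62.5% to 49.8% with BMP5 and from 59.4% to 48.0% with BMP7.

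BMP2 raised all 9 genes tested, and BMP5 and BMP7 raised most of them by smaller amounts. With BMP4 the same genes split, with Lats2 higher and Tead1 lower, at counts near the shares of all genes called higher and lower. With BMP3 none was called. The 9 genes were called higher with BMP2, where 36.8% of all genes tested were called higher, 38.4% lower and 75.1% in either direction. With BMP7 9 of 9 were higher, against 19.2% of all genes higher, 13.2% lower and 32.4% in either direction. With BMP5 8 of 9 (all but Yap1) were higher, against 16.5% of all genes higher, 9.87% lower and 26.3% in either direction. Their median log2 change was 3.01 with BMP2, 1.95 with BMP5 and 1.99 with BMP7, beside medians of -0.03, -0.03 and -0.05 over all genes. With BMP3 the median was 0.03 beside 0.01 over all genes. These comparisons use the same untreated samples and are not independent of each other.

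**Figure D1:**
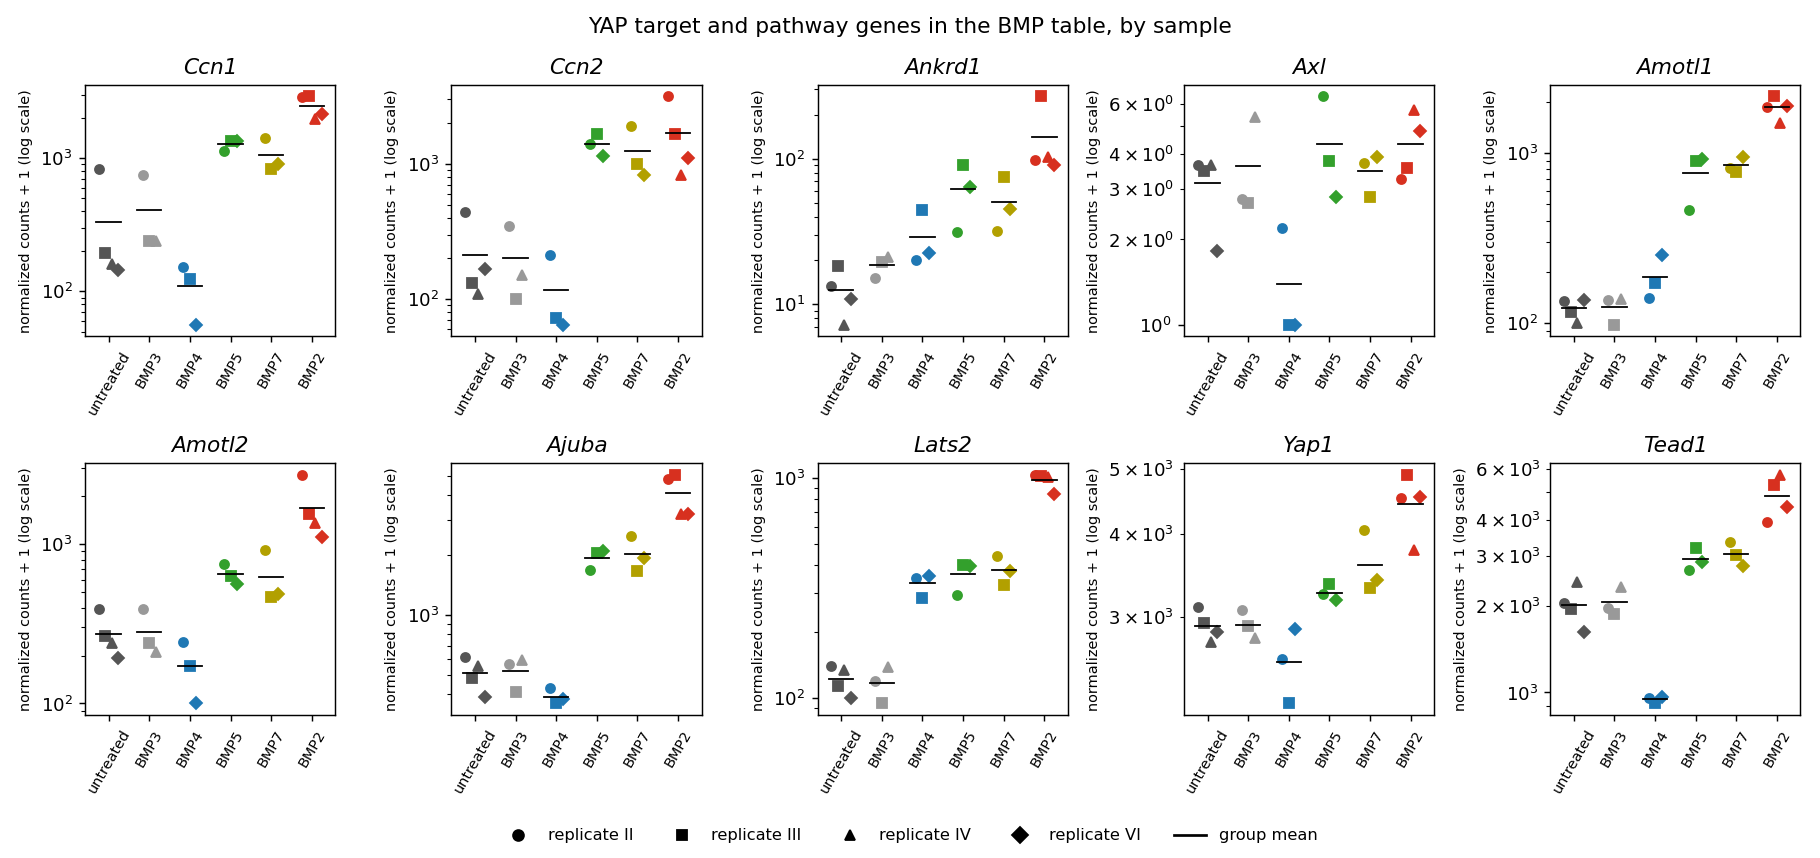
Normalized counts plus 1 on a log axis for the 10 genes in each sample of the BMP table, with marker shape for the replicate number in the titles and a line at the group mean. BMP2 has the highest group mean in the 9 panels other than Axl, whose values lie between 0 and 5.38 normalized counts, and the range of the BMP3 samples overlaps that of the untreated ones in every panel.

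Ccn1 and Ccn2 encode secreted matricellular proteins and are the most used readouts of YAP activity. Ccn1 (ENSMUSG00000028195) stood at 837, 195, 160 and 145 normalized counts in untreated samples II, III, IV and VI, and at 2900, 2920, 1980 and 2140 with BMP2. With BMP5 it stood at 1130, 1350 and 1340, and with BMP7 at 1430, 831 and 904, in samples II, III and VI. The BMP2 and BMP5 samples all lay above the untreated ones, whereas the lowest BMP7 sample lay just below the untreated sample II. The log2 change of Ccn1 was 3.30 ± 0.47 (SE) with BMP2, at an adjusted p of 3.6e-06 by limma. The change reached 2.35 ± 0.51 with BMP5 (adjusted p 0.00194) and 2.04 ± 0.51 with BMP7 (adjusted p 0.00458). Untreated sample II was over 4 times the others, which widened the error of every Ccn1 comparison with untreated samples. Without it the log2 change with BMP2 was 3.88. In samples given BMP4 Ccn1 stood at 151, 122 and 55.0 (II, III and VI), which gave a log2 change of -1.30 ± 0.51 (adjusted p 0.0314). The BMP4 and untreated ranges overlapped, because BMP4 sample II at 151 lay above untreated sample VI at 145.

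Ccn2 (ENSMUSG00000019997) stood at 437, 130, 109 and 165 normalized counts in untreated samples II, III, IV and VI, and at 3160, 1650, 828 and 1110 with BMP2. With BMP5 its values were 1400, 1670 and 1140, and with BMP7 1910, 993 and 833, in samples II, III and VI. All samples of these 3 ligands lay above every untreated sample, and the values with the 3 ligands overlapped one another. The log2 changes of Ccn2 were 3.04 ± 0.50 (SE) with BMP2, 2.95 ± 0.54 (BMP5) and 2.70 ± 0.54 (BMP7), with limma adjusted p-values of 2.09e-05, 0.000489 and 0.000826. With BMP4 Ccn2 was at 211, 71.9 and 63.4, and its log2 change of -0.85 ± 0.54 had an adjusted p of 0.178.

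Ankrd1 encodes a nuclear ankyrin-repeat protein of muscle and injured tissue. It was the lowest in reads of the 9 genes tested, with 7 to 209 reads per sample. Untreated samples II, III, IV and VI held 12.4, 17.4, 6.21 and 9.91 normalized counts of Ankrd1 (ENSMUSG00000024803), and the BMP2 samples 97.6, 267, 102 and 89.9. With BMP4, BMP5 and BMP7 (samples II, III and VI) the values were 19.0, 43.3 and 21.5, then 30.5, 89.8 and 63.0, then 30.9, 73.8 and 44.3. All samples given these 4 ligands were above all untreated samples. With BMP2 Ankrd1 rose by 3.41 ± 0.41 (log2, SE, limma adjusted p 4.33e-07). The rise was 2.27 ± 0.44 for BMP5, 2.01 ± 0.44 for BMP7 and 1.20 ± 0.44 for BMP4, at adjusted p-values of 0.000861, 0.00184 and 0.0239.

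Axl encodes a receptor tyrosine kinase that binds Gas6. It was close to absent from the organoids, with 0 to 6 reads per sample in the BMP table. The untreated samples held 3, 3, 3 and 1 reads in samples II, III, IV and VI, and the BMP4 samples 1, 0 and 0 in samples II, III and VI. The samples of the other ligands held 2 to 6 reads. Untreated and BMP4 samples were all at or under 3 reads, the limit that a count of 0 allows for counting error only, so no fold is given.

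Amotl1 and Amotl2 encode angiomotin-like scaffold proteins that hold YAP at cell junctions. Amotl1 (ENSMUSG00000013076) stood at 98.5 to 136 normalized counts in untreated samples, 1490 to 2150 with BMP2, 458 to 924 with BMP5 and 772 to 943 with BMP7, with no overlap with the untreated samples. Its log2 change of 3.92 ± 0.21 (SE) with BMP2 was the largest of the 9 genes in that comparison (adjusted p 8.7e-12). BMP5 and BMP7 gave 2.58 ± 0.23 and 2.80 ± 0.23, with adjusted p-values of 3.14e-07 and 8.5e-08. Amotl2 (ENSMUSG00000032531) ranged from 193 to 390 in untreated samples, 1110 to 2730 with BMP2, 562 to 752 with BMP5 and 463 to 917 with BMP7, again without overlap. It rose by 2.60 ± 0.31 with BMP2, 1.30 ± 0.34 (BMP5) and 1.17 ± 0.34 (BMP7), with adjusted p-values of 4.58e-07, 0.00828 and 0.0126. The BMP7 call of Amotl2 was lost without BMP7 sample II (0.86, adjusted p 0.0973).

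Ajuba encodes a LIM-domain protein that binds LATS kinases at junctions, and Lats2 encodes one of those kinases. Ajuba (ENSMUSG00000022178) ranged from 388 to 614 normalized counts in untreated samples, 3220 to 5090 with BMP2, 1690 to 2090 with BMP5 and 1660 to 2500 with BMP7. The groups did not overlap the untreated one, and the log2 changes were 2.99 ± 0.18, 1.95 ± 0.19 and 1.99 ± 0.19 (SE), with a highest adjusted p of 1.02e-06 (BMP5). Lats2 (ENSMUSG00000021959) stood at 139, 112, 133 and 99.1 in untreated samples II, III, IV and VI, and at 1030, 1020, 1000 and 839 with BMP2. With BMP4 it was at 351, 283 and 358, with BMP5 at 291, 402 and 395, and with BMP7 at 442, 324 and 378 (samples II, III and VI). Lats2 was thus high in every sample of these 4 ligands, and the BMP4, BMP5 and BMP7 samples overlapped one another. BMP2 gave a log2 change of 3.01 ± 0.15 (SE), against 1.45 ± 0.16 for BMP4, 1.58 ± 0.16 for BMP5 and 1.65 ± 0.16 for BMP7, with a highest adjusted p of 1.6e-06 (BMP5).

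Yap1 and Tead1 moved least with BMP2, BMP5 and BMP7. Yap1 (ENSMUSG00000053110) stood at 3110, 2940, 2750 and 2850 normalized counts in untreated samples II, III, IV and VI, and at 4520, 4900, 3780 and 4540 with BMP2. The log2 change with BMP2 was 0.60 ± 0.09 (SE), with an adjusted p of 8.9e-06. That call depended on the scaling, since Yap1 gave 0.14 (adjusted p 0.112) when samples were rescaled to the same total and 0.12 (adjusted p 0.135) after quantile normalization. With BMP7 the change was 0.30 ± 0.10 (adjusted p 0.0277), which was lost after quantile normalization (0.16, adjusted p 0.0969). It was also lost without BMP7 sample II (0.21, adjusted p 0.171), untreated sample IV (0.27, adjusted p 0.0675) or untreated sample VI (0.29, adjusted p 0.0591). With BMP5 Yap1 gave 0.17 ± 0.10, with an adjusted p of 0.244.

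Tead1 (ENSMUSG00000055320) stood at 2050, 1960, 2430 and 1620 normalized counts in untreated samples II, III, IV and VI, and at 3930, 5300, 5750 and 4440 with BMP2. With BMP4 it was at 953, 916 and 967 in samples II, III and VI, below every untreated sample and in a narrow range. It rose by 1.27 ± 0.13 (log2, SE) with BMP2, 0.54 ± 0.14 (BMP5) and 0.61 ± 0.14 (BMP7), with adjusted p-values of 3.18e-08, 0.0063 and 0.00215. With BMP4 it fell by 1.08 on the log2 scale, with an SE of 0.14 and an adjusted p of 1.44e-06.

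**Figure D2:**
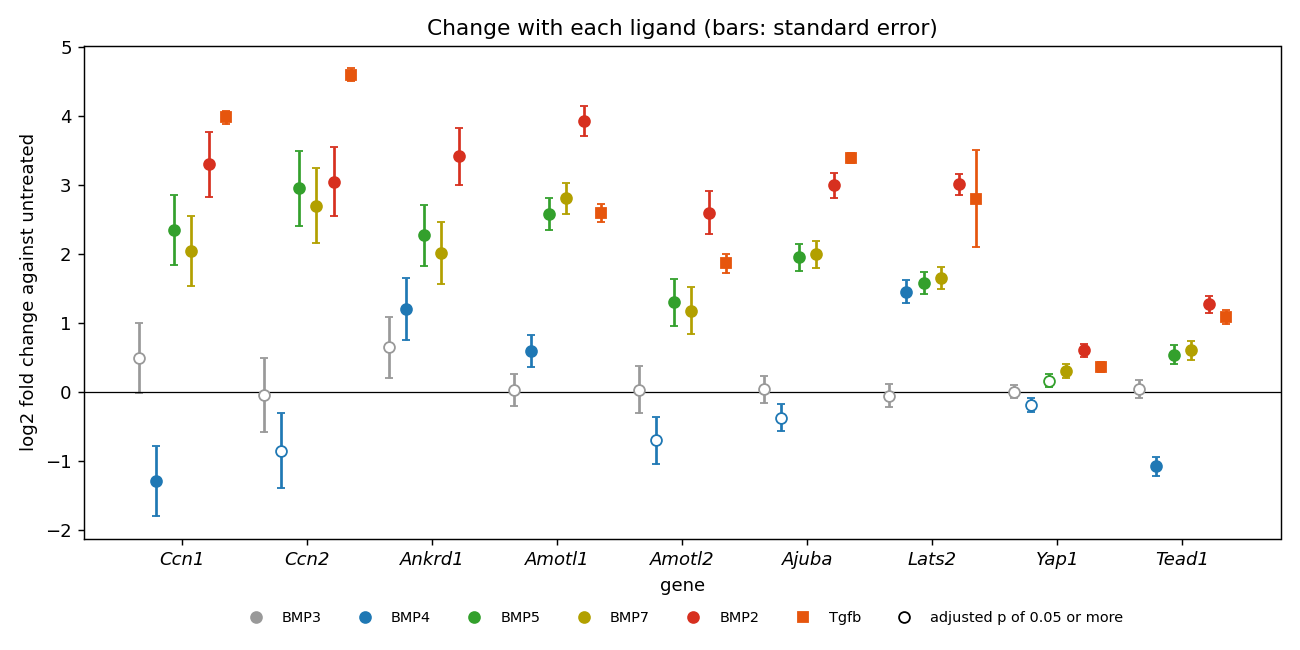
Log2 fold change against untreated samples of the same table for 9 of the genes (Axl is left out) with each ligand, with bars for the standard error and open symbols for an adjusted p of 0.05 or more. Symbols for BMP2 lie between 0.60 and 3.92, those for BMP4 on both sides of 0, and those for Tgfb come from a table scaled apart from the BMP table.

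The response to BMP4 was mixed. Amotl1, Ankrd1 and Lats2 were higher and Ccn1 and Tead1 were lower, so 5 of 9 genes were called, where 65.1% of all genes tested were called with BMP4 (33.7% higher and 31.4% lower). These counts, 3 higher and 2 lower, were near the shares of all genes in this fit. They moved in other fits, given below, so no verdict on the split is drawn from them. Amotl1 stood at 140, 170 and 249 normalized counts in BMP4 samples II, III and VI, all above the untreated maximum of 136, with a log2 change of 0.59 ± 0.23 (SE) and an adjusted p of 0.0312. The genes that were not called had log2 changes of -0.85 (Ccn2), -0.70 (Amotl2), -0.37 (Ajuba) and -0.19 (Yap1). The median over the 9 genes was -0.37 with BMP4, beside 0.04 over all genes. Replicate numbers paired BMP4 with untreated samples, and with the number as a block 8 of 9 genes were called. The 65.1% above belongs to the fit without the block, so this count is not set against it. The block added Ccn2 (-1.03, adjusted p 0.00529), Amotl2 (-0.77, adjusted p 0.00016) and Yap1 (-0.23, adjusted p 0.0254) to the genes that were lower.

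The BMP4 calls also rested on scaling and on single samples. The counts that follow describe these genes only, without the share of all genes called in the same refit. After rescaling to the same total, 1 gene was higher (Lats2) and 6 were lower, while edgeR on recovered reads gave 1 higher and 4 lower. That rescaling also lowered the share of all called genes that were higher with BMP4, from 51.7% to 31.1%. Leaving out each of the 7 samples in turn left 3 to 7 genes called, and only Lats2 and Tead1 were called in all 7 cases. The Ccn1 call was lost without untreated sample II or BMP4 sample VI (-0.71 and -0.87, adjusted p 0.119 and 0.181). It was also lost after quantile normalization (adjusted p 0.11), where Yap1 was called lower instead (-0.54, adjusted p 5.2e-06), and in a fit of only the 2 groups compared (adjusted p 0.0838). Ankrd1 was lost without untreated sample IV or BMP4 sample III (0.96 and 0.85, adjusted p 0.0766 and 0.143). Amotl1 was lost without untreated sample III, untreated sample IV or BMP4 sample VI (0.57, 0.50 and 0.36, adjusted p 0.059, 0.0862 and 0.204). Lats2 lay between 1.05 and 1.64 and Tead1 between -1.48 and -0.99 over the rescaled, quantile-normalized, blocked, edgeR and DESeq2 fits.

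BMP3, at the same dose and time, gave 0 calls among the 9 genes and 0% among all 14746 genes tested with limma, while DESeq2 on recovered reads called 1 gene of all and 0 of the 9. Ccn1 stood at 752, 238 and 240 normalized counts in BMP3 samples II, III and IV, and Ccn2 at 349, 98.8 and 150. The log2 changes with BMP3 ran from -0.06 (Lats2) to 0.65 (Ankrd1). The 95% intervals were narrow for Yap1 (-0.20 to 0.21), Tead1 (-0.24 to 0.33) and Lats2 (-0.40 to 0.29), and wide for Ccn1 (-0.57 to 1.56) and Ccn2 (-1.18 to 1.09). All 9 genes overlapped between BMP3 and untreated samples.

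Ligands were next compared with each other in 6 pairs. All 9 genes differed among the 5 BMP ligands by limma's F-test, where 84.1% of all genes did. BMP2 exceeded BMP4 in all 9 genes, where 33.4% of all genes were higher with BMP2, 33.4% lower and 66.8% in either direction. The differences (log2, BMP2 minus BMP4) ran from 0.79 ± 0.10 (SE) for Yap1 to 4.59 ± 0.51 for Ccn1, with a highest adjusted p of 0.000236 (Ankrd1). The lowest BMP2 sample for Ccn1 was at 1980 and the highest BMP4 sample at 151.

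BMP2 exceeded BMP5 in 7 of 9 genes, where 32.2% of all genes were higher with BMP2, 32.8% lower and 65% in either direction. It exceeded BMP7 in 8 of 9, where 31.4% of all genes were higher, 31.4% lower and 62.8% in either direction. The genes not called were Ccn2 in both pairs and Ccn1 against BMP5. Ccn2 differed by 0.09 between BMP2 and BMP5 (95% interval -1.04 to 1.23) and by 0.35 between BMP2 and BMP7 (-0.79 to 1.48). These intervals still hold differences of over 2-fold. For Ccn1 the difference of 0.95 between BMP2 and BMP5 had an adjusted p of 0.109, and 0.0163 (difference 1.10) with the replicate number as a block. After rescaling to the same total only 4 of 9 genes differed in each pair, and Yap1 gave 0.02 against BMP5 and -0.09 against BMP7. The 4 were Amotl1, Amotl2, Ajuba and Lats2 in both pairs. That rescaling moved the share of called genes higher with BMP2 from 49.6% to 26.5% against BMP5 and from 50.1% to 26.7% against BMP7. The share of all genes called after that rescaling is not given here. Without all samples numbered II Ccn1 differed between BMP2 and BMP5 (0.78, adjusted p 0.0261), and the Ankrd1 call was lost in both pairs (0.83, adjusted p 0.189, and 1.22, adjusted p 0.0603).

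BMP4 was below BMP5 and below BMP7 in 7 of 9 genes each, where 31.7% and 31.4% of all genes were lower with BMP4, 28.4% higher in each pair, and 60.1% and 59.8% in either direction. The largest differences were those of Ccn2, at -3.80 ± 0.58 (log2, SE) against BMP5 and -3.55 ± 0.58 against BMP7, with adjusted p-values of 1.57e-05 and 3.55e-05. Lats2 did not differ by this test, at -0.13 against BMP5 (95% interval -0.49 to 0.24) and -0.20 against BMP7 (-0.57 to 0.17). Ankrd1 gave -1.07 (adjusted p 0.0604) and -0.81 (adjusted p 0.15), and -1.07 (adjusted p 0.00617) and -0.81 (adjusted p 0.0292) with the replicate block. The same-total scaling moved the share of called genes higher with BMP4 from 47.3% to 27.4% against BMP5 and from 47.5% to 28.7% against BMP7, and called Lats2 lower in both pairs (-0.48, adjusted p 0.0231, and -0.53, adjusted p 0.0145).

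Between BMP5 and BMP7 0 of 9 genes were called, where 0.0136% of all genes (2 genes) were, 0.00678% in each direction. The 95% interval of the difference (BMP5 minus BMP7) was -0.36 to 0.09 for Yap1, -0.37 to 0.24 for Tead1 and -0.44 to 0.29 for Lats2. It was wider for Ccn1 (-0.83 to 1.44), Ccn2 (-0.96 to 1.46) and Ankrd1 (-0.74 to 1.25). These last 3 intervals, from the fit without the replicate block, still hold a 2-fold difference, and with the block 0 of 9 genes were called as well.

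Samples that carried the same number in their titles shared part of this spread. Amotl2 was highest in sample II in 6 of 6 groups of the BMP table, Ccn2 in 5 of 6 and Ccn1 in 4 of 6, whereas Ankrd1 was highest in sample III in 5 of 6. Amotl2 stood at 390 in sample II both untreated and with BMP3, and at 2730 in sample II with BMP2, where the other BMP2 samples reached 1110 to 1550. Only 3 groups have a sample IV, and Tead1 was highest in it in all 3. Amotl1 was highest in sample VI in 4 of the 5 groups that have one, and Lats2 was highest in sample II in 3 of 6. The labels do not say what a number stands for. Leaving out every sample numbered II left 9 genes called with BMP2, 7 with BMP4 and 8 each with BMP5 and BMP7. The shares of all genes called in that fit are not given here, so these counts are not set against them.

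**Figure D3:**
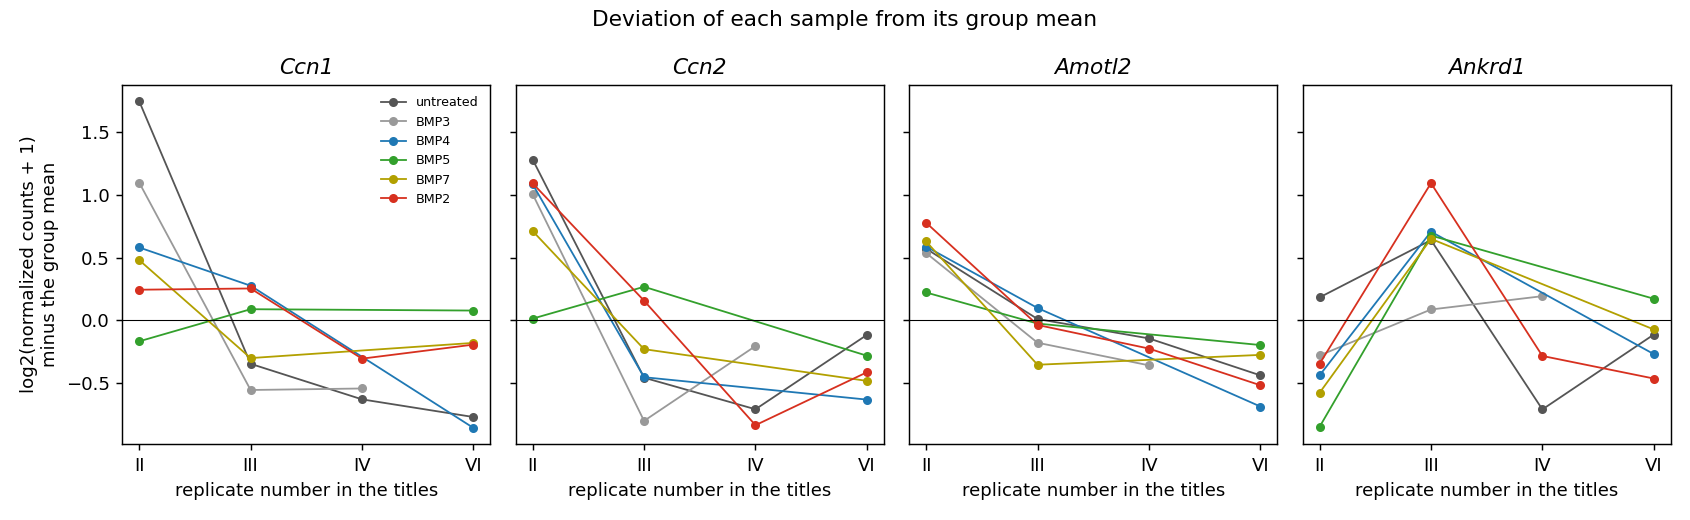
Log2(normalized counts + 1) minus the group mean for each sample of the BMP table, against the replicate number in the titles, with 1 line per group. Sample II is the highest of its group for Amotl2 in 6 of 6 groups, for Ccn2 in 5 and for Ccn1 in 4, and sample III for Ankrd1 in 5.

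Tgfb, tested against its own untreated samples, raised all 8 genes tested, where 27.4% of all genes tested were higher, 29.3% lower and 56.7% in either direction. Ccn2, Amotl1 and Lats2 had untreated means of 0.631, 0.680 and 0.862 TPM, below the filter of 1 TPM. They passed it through their Tgfb samples, so their calls as higher are partly set by the filter. Ccn1 went from 3.46, 3.20 and 2.73 TPM (samples I, II and III) to 68.8, 62.5 and 60.6, and Ccn2 from 0.729, 0.569 and 0.594 to 40.2, 40.3 and 34.6. Both were far outside the spread of the untreated samples. The log2 changes were 3.98 ± 0.09 (SE) for Ccn1 and 4.59 ± 0.09 for Ccn2, with adjusted p-values of 2.43e-06 and 1.9e-06. Ajuba rose from a mean of 3.64 ± 0.20 TPM (SD, n = 3) to 47.7 ± 3.05, and Amotl1 from 0.680 ± 0.16 to 9.10 ± 0.73. Amotl2 rose from 2.17 ± 0.31 to 10.5 ± 1.40, Tead1 from 9.97 ± 1.09 to 22.2 ± 2.04 and Yap1 from 40.5 ± 2.53 to 52.0 ± 2.18 (SD, n = 3 each). For these 5 genes the log2 changes were 3.39 (Ajuba), 2.59 (Amotl1), 1.86 (Amotl2), 1.08 (Tead1) and 0.36 (Yap1), with a highest adjusted p of 0.00609 (Yap1). The median over the 8 genes was 2.69, beside -0.04 over all genes tested. It includes Ccn2, Amotl1 and Lats2, so this median is also partly set by the filter.

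Lats2 went from 0.757, 1.08 and 0.753 TPM to 41.7, 5.90 and 6.28 with Tgfb, so 1 treated sample was over 6 times the other two. Its log2 change was 2.80 ± 0.70 (SE, adjusted p 0.0146), and 1.93 without Tgfb sample I. The call was lost without untreated sample I (adjusted p 0.057) or untreated sample III (adjusted p 0.0545). Ankrd1 was at 0.147, 0.0577 and 0.0325 TPM untreated and at 1.28, 1.25 and 0.604 with Tgfb, without overlap. It was below the filter of 1 TPM, and a fit without any filter gave a log2 change of 0.90 ± 0.15 (SE, adjusted p 0.0076). That change is on log2(TPM + 1), which understates values this low, and the ratio of the mean TPM of Ankrd1 was 13.2. Axl was at 0.123, 0.0248 and 0.0133 TPM untreated and at 0.0196, 0.0511 and 0 with Tgfb, so the groups overlapped.

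TPM is corrected for length and lets the genes be ordered. In untreated organoids Yap1 (40.5 TPM) and Tead1 (9.97) led, followed by Ajuba (3.64), Ccn1 (3.13), Amotl2 (2.17), Lats2 (0.862), Amotl1 (0.680), Ccn2 (0.631), Ankrd1 (0.0791) and Axl (0.0537). Amotl1 overlapped both Lats2 and Ccn2, and Ankrd1 overlapped Axl. With Tgfb the order was Ccn1 (64.0 TPM), Yap1 (52.0), Ajuba (47.7), Ccn2 (38.4), Tead1 (22.2), Lats2 (18.0), Amotl2 (10.5), Amotl1 (9.10), Ankrd1 (1.04) and Axl (0.0236). Yap1 overlapped Ajuba, Amotl2 overlapped Amotl1, and the samples of Lats2 spanned those of Ccn2, Tead1, Amotl2 and Amotl1.

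**Figure D4:**
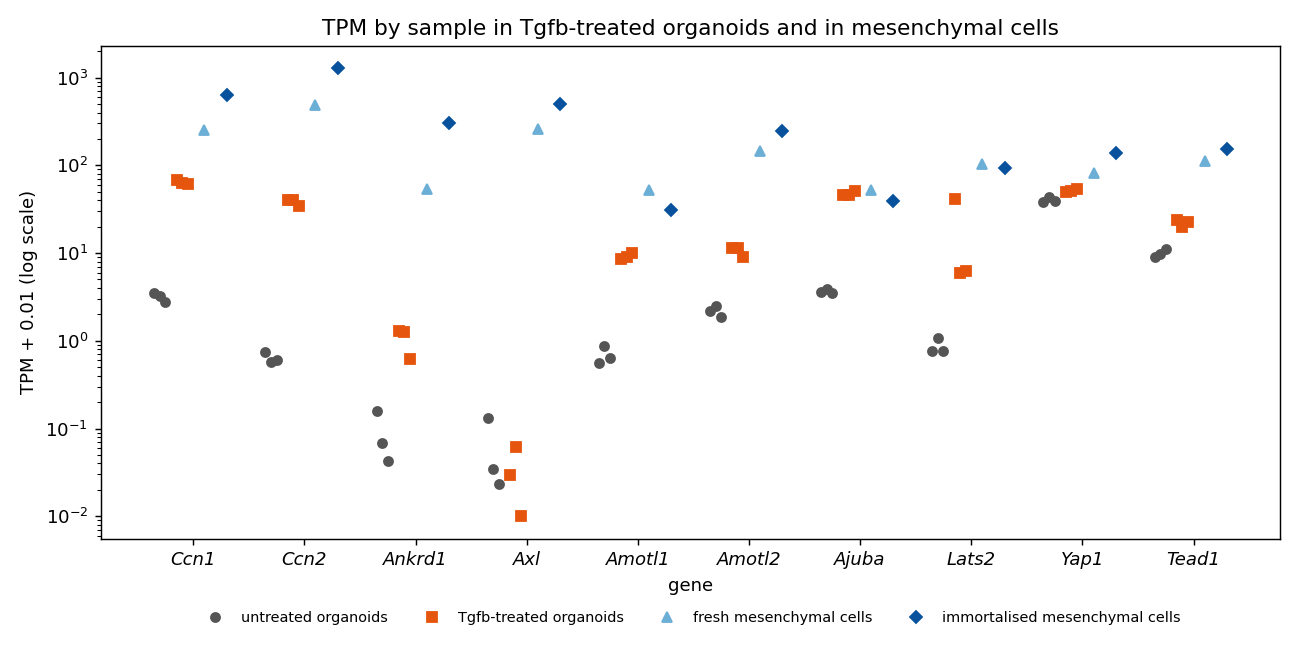
TPM plus 0.01 on a log axis for the 10 genes in untreated and Tgfb-treated organoids and in fresh and immortalised mesenchymal cells, with 1 symbol per sample. Tgfb samples lie above untreated ones for every gene except Axl, which is at 257 and 503 TPM in the mesenchymal samples, a table scaled apart from the organoid table.

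In mesenchymal cells, with 1 sample each and no test, all 10 genes were at 30.8 TPM or more. Fresh cells held 492 TPM of Ccn2, 257 of Axl, 253 of Ccn1, 146 of Amotl2 and 54.3 of Ankrd1, and immortalised cells 1276, 503, 641, 247 and 301. Immortalised over fresh, Ankrd1 was 5.55 times, Ccn2 2.59 times and Ccn1 2.53 times as high, whereas Lats2 (0.90), Ajuba (0.75) and Amotl1 (0.59) were below 1. On log2(TPM + 1), 3 of 10 genes were at least 2-fold higher, where 6.26% of 13652 genes were, and 0 were at least 2-fold lower, where 10.7% were. Both samples also differ in culture, selection and sorting, which cannot be told apart with 1 sample each.

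Cell-type markers were read beside these results. The summed level of 10 mesenchymal markers, 8 of them in the BMP table, was 141 to 229 normalized counts in untreated organoids, 80.6 to 119 with BMP2, 34.2 to 51.4 with BMP4, 155 to 220 (BMP5), 101 to 173 (BMP7) and 149 to 250 (BMP3). Vim stood at 119 to 180 untreated and at 31.6 to 37.6 with BMP2. Pdgfra, a defining marker, stood at 0 to 1.78 untreated and at 12.8 to 37.5 with BMP2. Col3a1 was at 0 in all untreated, BMP5 and BMP7 samples, and Dcn and Lum have no row in that table. In the Tgfb table the sum was 5.21 to 8.37 TPM untreated and 7.64 to 9.87 with Tgfb, against 22762 and 13508 TPM in fresh and immortalised mesenchymal cells. Col1a2, Col3a1, Dcn and Lum were at 0 TPM in all 6 organoid samples of that table.

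Of 6 epithelial markers, 5 were called higher and 1 lower with BMP2 and with Tgfb. BMP4 gave 6 called higher, BMP5 and BMP7 gave 5 each, and BMP3 gave 0 calls. Among all genes tested, BMP2 had 75.1% called (36.8% higher, 38.4% lower) and Tgfb 56.7% (27.4% higher, 29.3% lower). BMP4 had 65.1% called and 33.7% higher. The share called higher was 19.2% for BMP7, 16.5% for BMP5 and 0% for BMP3. The marker called lower was Cdx2, an intestinal transcription factor, at -0.43 (log2, adjusted p 0.0309) with BMP2 and -0.64 (adjusted p 0.00236) with Tgfb, named after its values were seen. The sum of Epcam, Cdh1, Krt8, Krt18, Vil1 and Cdx2 was 95740 to 106620 normalized counts untreated and 528220 to 665640 with BMP2, 209230 to 290600 with BMP4, 172760 to 278440 with BMP5 and 209270 to 291770 with BMP7. It was 98980 to 109790 with BMP3, and in the Tgfb table it went from 2249 to 2440 TPM untreated to 7900 to 10342 with Tgfb. The fresh and immortalised mesenchymal cells held 28.4 and 0.0868 TPM of the same 6 markers. Of 8 markers of immune, endothelial and glial cells, 7 were in the BMP data and summed to 657 to 866 untreated, 918 to 1108 with BMP2, 973 to 1073 with BMP4, 683 to 858 (BMP5), 664 to 777 (BMP7) and 638 to 805 (BMP3). The part of these shifts in the results above was not tested. In bulk samples fewer cells of a type and less RNA per cell cannot be told apart.

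Among 29 other Hippo pathway genes, 28 were tested in each table. With BMP2 21 were higher and 5 lower, with BMP5 10 and 0, with BMP7 14 and 0, with BMP4 9 and 10, with BMP3 0 and 0, and with Tgfb 17 and 1. Over all genes tested, 36.8% were higher and 38.4% lower with BMP2, 33.7% and 31.4% with BMP4, 16.5% and 9.87% with BMP5, 19.2% and 13.2% with BMP7, and 27.4% and 29.3% with Tgfb. The BMP4 counts of Hippo genes were near these shares. Scaling changed these splits, with 4 higher and 16 lower for BMP4 at the same total and 10 higher and 3 lower for BMP5 after quantile normalization. The share of all called genes that were higher fell as well, from 51.7% to 31.1% for BMP4 and from 62.5% to 49.8% for BMP5. The change of split is thus not particular to the Hippo genes. Tead2, a further TEAD factor, was at 219 to 313 normalized counts untreated, 823 to 1200 with BMP2 and 19.4 to 34.7 with BMP4. Its log2 change was 1.84 ± 0.17 (SE) with BMP2 and -3.52 ± 0.19 with BMP4 (adjusted p 1.4e-08 and 3.97e-11). Map4k4, a kinase upstream of LATS, rose by 2.52 ± 0.12 with BMP2 and fell by 0.50 with BMP4 (SE 0.13, adjusted p 0.00276). Wwc2, a KIBRA family scaffold, rose by 2.84 ± 0.14 with BMP2, 1.04 ± 0.15 with BMP4 and, in the Tgfb table, 2.45 ± 0.10.

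Of 16 further genes known as targets of YAP or TAZ, 13 were tested in the BMP table and 10 in the Tgfb table. With BMP2 10 were higher and 0 lower, with BMP5 12 and 0, with BMP7 11 and 0, with BMP4 8 and 3, with BMP3 0 and 0, and with Tgfb 9 and 0. The shares of all genes called higher were 36.8%, 16.5%, 19.2%, 33.7%, 0% and 27.4% in the same order of ligands. The median log2 change of these targets was 3.42 (BMP2), 0.81 (BMP4), 1.47 (BMP5), 1.22 (BMP7) and 1.90 (Tgfb). Myof, a ferlin of the plasma membrane, rose by 4.00 ± 0.19 (log2, SE) with BMP2 and 3.77 ± 0.12 with Tgfb, and by 2.21 ± 0.21 (BMP5), 2.46 ± 0.21 (BMP7) and 0.93 ± 0.21 (BMP4). Dock5, a Rac exchange factor, rose by 2.28 ± 0.11 with BMP2, 1.65 ± 0.12 with BMP4 and 0.79 ± 0.12 with BMP5. F3, tissue factor, rose by 4.94 with BMP2 and by 4.94 with Tgfb, on unlike scales (normalized counts and TPM). Its 0.78 ± 0.32 with BMP4 (adjusted p 0.0376) was not called by edgeR, at the same total or after quantile normalization. The 3 genes lower with BMP4 were Ptpn14 (-3.08, also among the Hippo genes above), Rbms3 (-3.35) and Arhgef17 (-2.61), named after their values were seen.

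All 10 genes of an injury-response list known from regenerating crypts were tested. With BMP2 10 were higher, with BMP4 7, with BMP5 8, with BMP7 8, with Tgfb 9 and with BMP3 0, and 0 were lower with any ligand. In the same order, the shares of all genes called higher were 36.8%, 33.7%, 16.5%, 19.2%, 27.4% and 0%. Anxa1, which encodes annexin A1, rose by 6.28 ± 0.27 (log2, SE) with BMP2, against 3.28 ± 0.29 (BMP5), 3.52 ± 0.29 (BMP7) and 1.05 ± 0.29 (BMP4). Anxa3 rose by 3.88 ± 0.15, 2.05 ± 0.16, 2.14 ± 0.16 and 1.44 ± 0.16 with the same ligands. Il1rn, the interleukin-1 receptor antagonist, rose by 4.36 ± 0.19 with BMP2 and, in the Tgfb table, by 4.80 ± 0.09.

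The genes whose 5 log2 changes with BMP ligands lay nearest to those of Ccn1 were Vasn, Csf1 and Flna, with root-mean-square differences of 0.23, 0.25 and 0.26. Vasn gave log2 changes of 3.18 (BMP2), 0.17 (BMP3), -1.37 (BMP4), 1.98 (BMP5) and 2.02 (BMP7). Nearest to Ccn2 were Ano1, Paqr5 and Nfatc2 (0.24, 0.24 and 0.31), and nearest to Ankrd1 were Pdgfc, Slfn2 and Arhgap40 (0.23, 0.24 and 0.26). Pdgfc, a platelet-derived growth factor, gave 3.53 (BMP2), 0.31 (BMP3), 1.10 (BMP4), 2.35 (BMP5) and 2.37 (BMP7). These are descriptions over 5 comparisons that use the same 4 untreated samples.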

How the data were processed

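Per the submitters' processing notes, reads were handled with Trim Galore, Salmon and DESeq2 and build GRCm39, with no role, order or version given. Libraries came from a KAPA mRNA kit and a NextSeq 500, per the series' design text, in runs not assigned to samples. The deposited BMP table held a signal, counts divided by 1 size factor per sample, with at most 3 significant digits. Of 180721 values of at most 20 reads, 100.0% were whole within 0.15 of a read. The deposited Tgfb and mesenchymal tables held TPM, since columns sum to 1000000. All values carried gene names, and 0 per-sample columns were left unmapped.

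Groups came from the labels. limma 3.58.1 (R 4.3.3) with an intensity trend was run on log2(value + 1), two-sided, in 1 fit per table. Genes needed a mean of at least 10 normalized counts (14746 of 29413) or 1 TPM (12959 of 55416). edgeR 4.0.16 and DESeq2 1.42.0 ran on recovered reads as alternatives. The scripts were tested on simulated data. A log2 change on this scale understates low genes. Floors of 3 reads cover counting error only.

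The 10 genes, the lists and the tests were chosen with earlier results of these data known. The naming rule took all 10 genes, per list the 2 smallest F-test p-values and the smallest p with Tgfb, and the 3 nearest genes (mean of at least 50) for Ccn1, Ccn2 and Ankrd1. Replicate numbers in the titles were checked by correlating deviations from group means. All same-numbered pairs exceeded 0.1 for BMP3, BMP4, BMP5 and BMP7 against untreated (0.16 to 0.55), so the numbers pair those samples. For BMP2 sample III gave 0.018, so the rule was not met, while samples II, VI and IV gave 0.20, 0.31 and 0.42. For Tgfb (0.004 to 0.070) the numbers do not pair the samples.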

Additional observations from a re-analysis of the deposited data

Results flagged for a closer look

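In groups of 4 samples, the highest or lowest sample was compared with the rest by Dixon's ratio, the gap to the nearest sample over the whole range, and set against Dixon's 95% critical value for 4 samples. Of 20 such groups tested, 5 exceeded it, and chance gives about 1 in 20. Ccn1 in the untreated samples had 1 sample far above the others, sample II at 837 normalized counts with a ratio of 0.9277. Ccn2 in the untreated samples did so as well, with sample II at 437 and a ratio of 0.8293. Ankrd1 with BMP2 had sample III at 267, far above the other samples, with a ratio of 0.9317. Lats2 with BMP2 had sample VI at 839 below the rest, with a ratio of 0.8429. Axl in the untreated samples had sample VI as the lowest with a ratio of 0.9073, which is a matter of 1 read against 3.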

How the results depend on the processing

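Over 920 alternatives for single genes, 879 kept their direction and side of the threshold, 24 lost a call and 17 gained one, and none of the called values reversed. Among the 879 are 27 changes of sign of values that were not called, all with BMP3. Counts in this section stand without the share of all genes called in the same refit. The count of called genes moved by over 1.5 times in these cases. For BMP4 it was 5, and 8 with the replicate block, which changed no other call against untreated samples. For BMP2 against BMP5 it was 7, and 4 at the same total. For BMP2 against BMP7 it was 8, 4 at the same total and 5 after quantile normalization. For Tgfb it was 8, and 5 with a mean of at least 10 TPM, where 5 of the genes were tested. By less than 1.5 times, the block moved the count from 7 to 8 for BMP2 against BMP5, BMP4 against BMP5 and BMP4 against BMP7. Leaving out 1 sample at a time gave 3 to 7 calls with BMP4, 7 to 9 with BMP7, 7 to 8 with Tgfb, 9 with BMP2, 8 with BMP5 and 0 with BMP3. Between ligands it gave 9 for BMP2 against BMP4, 6 to 7 for BMP2 against BMP5, 6 to 8 for BMP2 against BMP7, 7 to 8 for BMP4 against BMP5, 7 for BMP4 against BMP7 and 0 for BMP5 against BMP7. Fits without all samples numbered II, and without the Tgfb pair numbered I, were chosen after seeing the data. For Tgfb the replicate block gave 8 called genes, and the numbers did not pair those samples. The cause of these shifts was not tested beyond the settings themselves. Depth limits Axl (0 to 6 reads) and Ankrd1 (7 to 209 reads) most.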

Other observations

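The TEAD family and Wwtr1, which encodes TAZ, did not move together with BMP4. These genes were picked from the Hippo list after their values were seen. With BMP4 Tead2 fell by 3.52 and Tead1 by 1.08 on the log2 scale, Tead4 rose by 0.69 (adjusted p 0.0135) and Tead3 gave 0.17 (adjusted p 0.371). At the same total Tead4 gave 0.29 with BMP4 and was no longer called, while Tead1 and Tead2 were still called lower. Wwtr1 was at 316 to 462 normalized counts untreated and 327 to 394 with BMP4, a log2 change of -0.02 (adjusted p 0.925), and at the same total it was called lower at -0.41. With BMP2 it reached 1900 to 2280, a log2 change of 2.51 ± 0.12 (SE, adjusted p 2.19e-12), where that of Yap1 was 0.60. With Tgfb Wwtr1 went from 1.24 ± 0.12 TPM (SD, n = 3) to 9.04 ± 0.69, a log2 change of 2.16, where that of Yap1 was 0.36. The difference between the 2 genes was not tested.

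Vgll4, which encodes a cofactor that competes with YAP for TEAD, was lower with BMP4 (-1.66 ± 0.13, SE), BMP2 (-0.64 ± 0.12) and Tgfb (-0.74 ± 0.07), with limma adjusted p-values of 2.79e-09, 6.59e-05 and 0.00025. These calls held at the same total (BMP ligands only) and after quantile normalization. With BMP5 and BMP7 it gave -0.24 (adjusted p 0.165) and -0.29 (adjusted p 0.0873).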
